A study of Homo sapiens with 4 samples.

Results

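Gamma-secretase is a protease of the cell's membranes that cuts other membrane proteins inside the lipid bilayer, after a sheddase has removed most of their outer part. It releases the intracellular domain of Notch receptors, which then acts in the nucleus, and it makes the amyloid peptides from the amyloid precursor protein APP. The complex is built from a presenilin, which carries the catalytic aspartates, nicastrin, an APH1 protein and PEN-2. Genes for 5 subunits were followed here among the 9271 genes that the 4 libraries list together: PSEN2 (presenilin 2), NCSTN (nicastrin), APH1A and APH1B (alternative APH1 scaffold proteins) and PSENEN (PEN-2, the smallest subunit, needed for presenilin to cut itself into its active fragments). All 5 were listed in every library. The family was picked because the readthrough rise of PSENEN and the 5′UTR fall of APH1A in G418 were among those seen in these same libraries, so the contrast between conditions is given for these 2 genes as a description without p-values, and tests are given for NCSTN, PSEN2 and APH1B.

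The libraries are ribosome profiles of the HEK293T line, which derives from human embryonic kidney and carries a viral large T antigen. Ribosome profiling counts ribosome protected fragments (RPFs), the pieces of mRNA shielded by a ribosome. Untreated cells (0 µg/mL, replicates A and B) were compared with cells given 500 µg/mL of the aminoglycoside G418 for 24 hr (replicates A and B), and both conditions were lysed in cycloheximide. The question was how far G418, which binds the ribosome's decoding center, lets ribosomes pass the normal termination codon (NTC). How it changes RPF counts elsewhere on the mRNAs was followed too. The libraries held 2440204 to 6082600 reads on mRNAs, with Untreated B the shallowest. All 6 filament genes known from HEK293T cells were listed in every library and summed to 775 to 784 RPKM in Untreated and 654 to 686 RPKM in G418. Most of that sum was VIM, with 639 and 658 RPKM in Untreated and 558 and 533 RPKM in G418. Of 5 blood and liver genes only HBA1 was listed, at 2.26 to 3.90 RPKM. The filament gene KRT8, at 1.45 to 2.13 RPKM, lay below HBA1, so it did not help to identify the line. Fewer expressing cells and fewer ribosomes per cell cannot be told apart in such bulk libraries. Nor can less mRNA be told from fewer ribosomes per mRNA, since no mRNA measurement was used here.

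The readthrough values are compared among mRNAs with the same stop codon and next nucleotide, so the letters around the NTC are given first. The mRNA sequence from 12 nt before to 15 nt after the NTC is shown for 4 of the genes, 5′ to 3′ with the stop codon in capitals, read from GENCODE 44 on hg38.
PSENEN: cugggcacccccUGAcaacuucugcacaua
APH1A: ccacccgaggacUGAgggaaccuagggggg
NCSTN: gcugugucauacUGAggaggaccccagcuu
APH1B: cagcgcuccagaUAAccucagggaaccagc
PSENEN ends in UGAC, a 4 nt stop that 10.8% of the transcripts listed share. APH1A, NCSTN and PSEN2 end in UGAG, which 19.8% share. The APH1B gene ends in UAAC, shared by 5.55%.

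The distance to the next stop also differs. A ribosome that passes the NTC meets a first in-frame stop codon in the 3′UTR (3′TC) after 49 further codons in PSENEN, 13 in APH1A, 14 in NCSTN, 29 in PSEN2 and 31 in APH1B. The PSENEN 3′UTR of 157 nt holds that single in-frame 3′TC, a UAA 7 nt from the mRNA's end, so nearly its whole 3′UTR can be read through.
PSENEN first 3′TC: aauaaaggacccUAAcuuucga
APH1A, NCSTN, PSEN2 and APH1B carry 17, 9, 6 and 65 in-frame 3′TCs. Readthrough is given as RRTS, the RPF density from the NTC to the first 3′TC divided by the density on the coding sequence (CDS), in percent. The stretch counted is 144 nt in PSENEN and 36 to 90 nt in the other 4 genes, against a median distance between the stops of 69 nt over all transcripts.

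PSENEN lies on the plus strand of hg38 at chr19:35745619-35747004, with its NTC in the last of 4 exons at chr19:35746845-35746847. APH1A is on the minus strand at chr1:150265404-150269016, with its NTC in exon 7 at chr1:150266130-150266132. NCSTN (chr1:160343383-160358949, 17 exons), PSEN2 (chr1:226870616-226896098, 13 exons) and APH1B (chr15:63277605-63309126, 6 exons) are on the plus strand, and each NTC is in the last exon. No exon of another annotated gene on either strand overlaps the stretch after the NTC of PSENEN, APH1A, NCSTN or APH1B. A same-strand gene model, ENSG00000188223, shares 166 of 306 nt of the PSENEN CDS and 81 of 140 nt of its 5′UTR, and another, ENSG00000288674, shares all of the PSEN2 CDS and 3′UTR, so reads counted for PSEN2 cannot be told from reads of that model. COPA overlaps 85 nt of the NCSTN CDS and C1orf54 113 nt of the APH1A CDS and 10 nt of its 5′UTR on the opposite strand.

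PSENEN had by far the highest ribosome density of the subunits. Its CDS density was 165 and 198 RPKM in Untreated A and B and 156 and 143 RPKM in G418 A and B, which put it at the 90.1 to 92.9 percentiles of the listed transcripts. APH1A followed with 60.7 and 62.9 RPKM in Untreated and 99.9 and 86.6 RPKM in G418. Nicastrin's gene NCSTN, whose protein forms the large outer domain of the complex, had 52.9 and 49.0 RPKM in Untreated and 57.0 and 49.1 RPKM in G418.

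PSEN2, the catalytic member, stood lower at 17.6 and 18.2 RPKM in Untreated and 19.1 and 16.4 RPKM in G418. The lowest was APH1B, with 8.31 and 8.68 RPKM in Untreated and 11.1 and 9.33 RPKM in G418. The order PSENEN, APH1A, NCSTN, PSEN2, APH1B held in both conditions, and no pair of neighbours had overlapping ranges within a condition. The closest pair was APH1A over NCSTN in Untreated cells, 1.21 times apart in the means. The order is a description, and no test was made between genes.

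The ratios computed with APH1A or PSENEN did not overlap between conditions. Both genes were chosen on these conditions, and how often ratios of other genes separate was not counted. In CDS RPKM alone, both G418 libraries lay above both untreated ones for 32.0% of transcripts tested and below them for 13.6%. APH1A over APH1B was 7.31 and 7.25 in Untreated and 8.998 and 9.284 in G418, and APH1A over NCSTN was 1.15 and 1.28 in Untreated and 1.75 and 1.76 in G418. Between NCSTN and PSEN2 the ratio was 3.01 and 2.70 in Untreated and 2.993 in G418 A and 2.996 in G418 B, so the treated values lay within the untreated range. PSENEN over NCSTN was 3.12 and 4.03 in Untreated and 2.74 and 2.91 in G418, where Untreated B gave the widest gap, and PSENEN over PSEN2 was 9.42 and 10.9 in Untreated and 8.21 and 8.72 in G418.

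**Figure D1:**
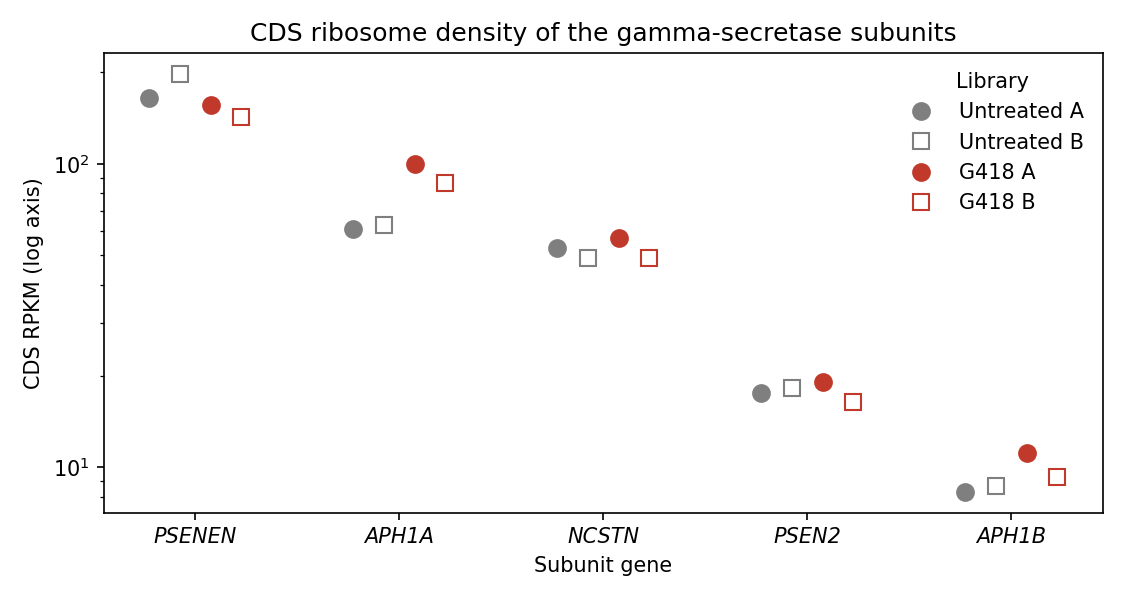
CDS ribosome density of the 5 subunit genes (x axis) in RPKM on a log axis (y axis), a point for each library, grey for Untreated and red for G418, filled circles for replicate A and open squares for replicate B. PSENEN is highest and APH1B lowest in every library, and the red points lie above the grey ones for APH1A (86.6 and 99.9 against 60.7 and 62.9 RPKM) and APH1B (9.33 and 11.1 against 8.31 and 8.68 RPKM).

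Across all genes, 5.31% of the 8494 transcripts tested had more CDS reads in G418 and 3.21% had fewer, by edgeR's quasi-likelihood test with a Benjamini-Hochberg adjusted p of 0.05. None of the 3 subunits that could be tested passed it. NCSTN differed by -0.02 on the log2 scale (SE 0.10, adjusted p = 0.943), with a 95% interval from -0.21 to 0.18. PSEN2 differed by -0.07 (SE 0.15, adjusted p = 0.835; interval -0.36 to 0.22) and APH1B by 0.21 (SE 0.22, adjusted p = 0.618; interval -0.22 to 0.65). The intervals leave room for changes of the size fitted for PSENEN in PSEN2 and of that fitted for APH1A in APH1B.

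APH1A had more CDS reads at equal depth in both G418 libraries than in both untreated ones, with a fitted difference of 0.53 on the log2 scale (SE 0.11). PSENEN had fewer at equal depth, at -0.32 (SE 0.13), which became -0.54 without Untreated A and -0.16 without Untreated B. Both G418 libraries lay above both untreated ones in CDS RPKM for 32.0% of all transcripts tested and below them for 13.6%. APH1B also lay above by this count, while NCSTN and PSEN2 overlapped. Scaling to library totals in place of TMM raised the differences of all genes by a median of 0.10, and it turned the signs of NCSTN to 0.09 and of PSEN2 to 0.03 but left APH1A at 0.64, APH1B at 0.32 and PSENEN at -0.22.

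Ribosomes past the NTC of PSENEN were seen in G418 only. No read lay after its NTC and before the 3′TC in Untreated A or in Untreated B, whereas G418 A held 56 and G418 B held 46. On the 3′UTR of 157 nt these were all the reads. RRTS was 0 in both untreated libraries, where 3 reads would be 1.41% and 2.71% and the exact intervals reach 1.74% and 3.33%. It was 29.7% in G418 A (interval 22.4 to 38.5%) and 29.2% in G418 B (interval 21.4 to 38.9%). These intervals cover counting error only, and both treated libraries were high and both untreated ones empty.

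Set against a floor of 3 reads in each untreated library, the mean RRTS of PSENEN in G418 was 14.3-fold higher. The same floor gave 21.01-fold between the libraries lettered A and 10.8-fold between those lettered B, letters that could not be shown to pair them. The exact upper limit of a count of 0 is 3.69 reads. These folds also leave out the counting error of the treated values, so they are not lower bounds. By the fitted log2 difference PSENEN ranked 3 among 2827 transcripts tested, but all of the 20 largest fitted rises belonged to transcripts with no untreated read, as did 568 of those tested. Readthrough rose past the threshold in 82.6% of transcripts tested and fell in 0.0707%. In 93.8% both treated RRTS values lay above both untreated ones, while in 0.354% both lay below. The minimum of 10 reads was summed over all libraries, so a transcript could be tested on G418 reads alone and then only come out higher. These shares of rises are therefore favoured by the minimum, and at a minimum of 5 reads 66.3% rose past the threshold. PSENEN was chosen from this contrast between conditions, so nothing is read from its place among the transcripts tested.

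Within the G418 libraries the PSENEN value was not extreme. The median RRTS of all transcripts with the minimum of mRNA reads that the study set was 20.3% in G418 A and 18.7% in G418 B, and PSENEN stood at the 65.0 and 67.4 percentiles. Among the transcripts that also end in UGAC the medians were 39.8% (n = 605) and 35.9% (n = 574), and PSENEN stood at the 37.7 and 40.6 percentiles. PSENEN therefore lay above the middle of all stops in G418, and its point values lay below the middle of its own stop. Its counting interval reached 38.5% in G418 A and 38.9% in G418 B, so it held the UGAC median in G418 B and not in G418 A.

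**Figure D2:**
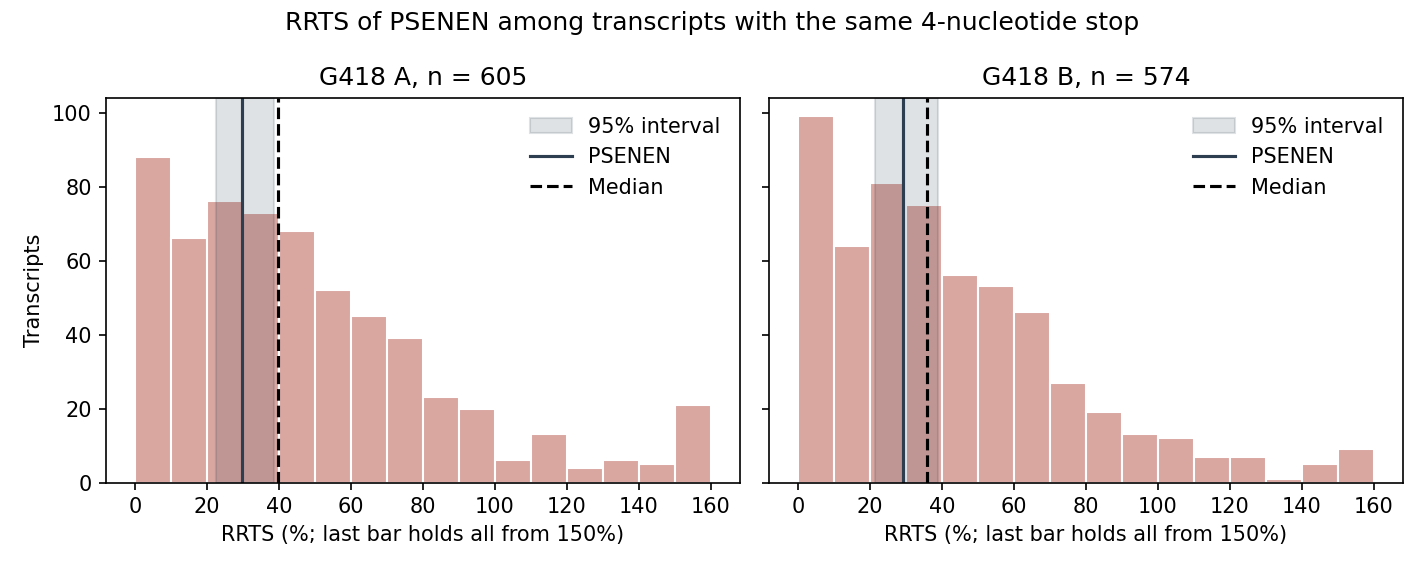
Number of UGAC transcripts (y axis) by RRTS in percent (x axis, bars of 10 percentage points, the last holding all from 150%) in G418 A and G418 B, with PSENEN as a solid line, its 95% counting interval shaded and the median of the UGAC transcripts dashed. PSENEN lies left of the median in both libraries, at 29.7% against 39.8% and at 29.2% against 35.9%.

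The reads on each subunit can be set beside the number that its own CDS density would give at the pooled RRTS of all other transcripts with the same 4 nt stop. The other UGAC transcripts had a pooled RRTS of 5.15% and 4.19% in Untreated A and B and of 32.0% and 30.6% in G418 A and B. At those rates PSENEN would have had 60.4 and 48.2 reads in G418, near the 56 and 46 observed. In Untreated it would have had 10.9 and 4.64 reads where 0 were seen.

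A minority of comparable transcripts had an empty stretch in untreated cells. Of 343 UGAC transcripts that met the same minimum in Untreated A and Untreated B, 23 had, like PSENEN, a CDS density and stretch that would give at least 323 reads at an RRTS of 100%. PSENEN was among the 4 of these 23 with no untreated read before the 3′TC, and the median of the 23 was 8 reads. The absence of untreated reads belongs to the values by which PSENEN was chosen and carries no test.

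**Figure D3:**
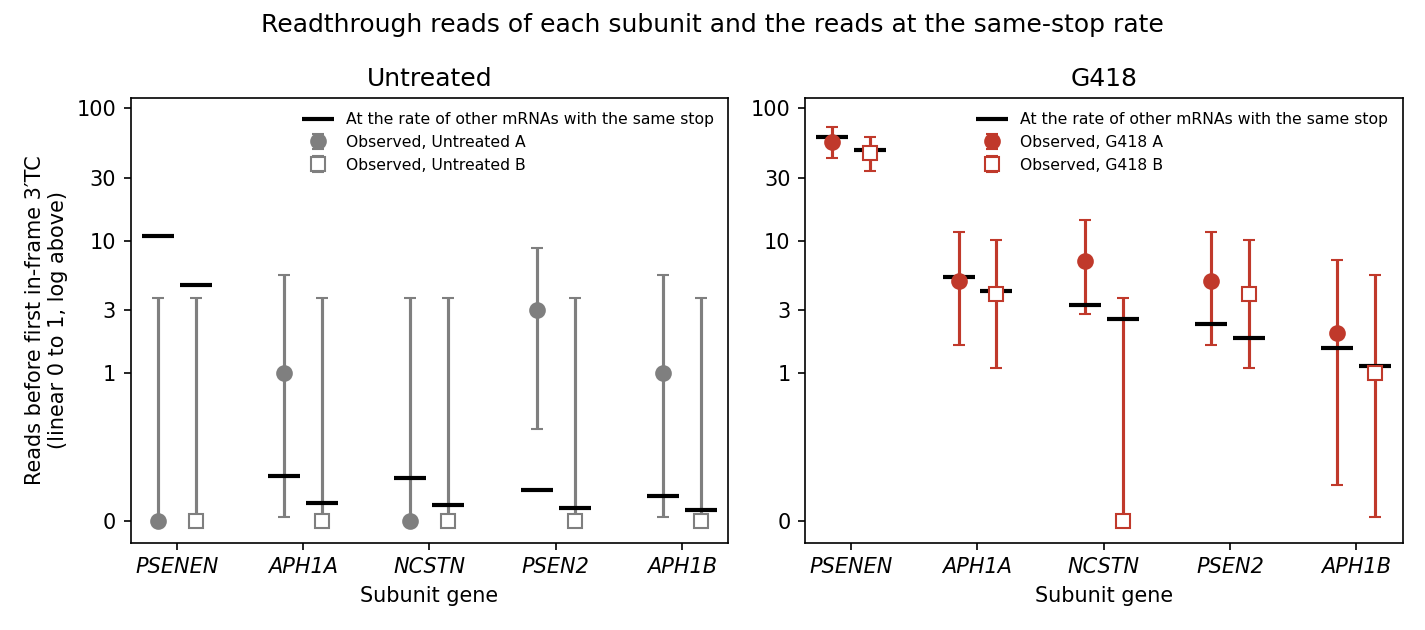
Reads past the NTC and before the first 3′TC (y axis, linear from 0 to 1 and logarithmic above) for each subunit gene (x axis) in Untreated (left) and G418 (right), with filled circles for replicate A, open squares for replicate B, bars for exact 95% Poisson intervals and black dashes for the reads at the pooled rate of other mRNAs with the same 4 nt stop. In G418 each interval holds the dash, with at most 7 reads observed for genes other than PSENEN. In Untreated the dashes outside PSENEN lie at 0.068 to 0.304 reads, which any count of 0 or 1 holds. The untreated interval of PSEN2 in replicate A, with 3 reads, does not hold its dash. Nor do those of PSENEN, whose untreated counts are among the values by which it was chosen. The share of all transcripts whose interval holds the dash was not counted.

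The other 4 subunits had few reads past their NTCs. APH1A had 1 and 0 in Untreated and 5 and 4 in G418, which are RRTS values of 5.12% and 0 and of 16.6% and 16.7%. The UGAG rate of 17.7% and 17.4% in G418 would have given APH1A 5.33 and 4.16 reads, next to those seen. With so short a stretch the exact interval of the count of 0 in Untreated B reaches an RRTS of 41.9%. The fitted difference of 2.06 on the log2 scale had an SE of 1.32.

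PSEN2 had 3 and 0 reads in Untreated and 5 and 4 in G418, an RRTS of 22.8% and 0 against 37.2% and 37.9%. It was the only testable subunit that reached 10 such reads, and its difference of 1.2 on the log2 scale did not pass the threshold (SE 0.99, edgeR adjusted p = 0.242), with an interval from -0.74 to 3.14 beside a median of 3.18 over all transcripts tested. Its 3 reads in Untreated A compare with 0.205 at the UGAG rate.

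NCSTN had no read before its 3′TC in Untreated, 7 in G418 A and 0 in G418 B. The RRTS of 37.5% in G418 A had an interval from 15.1 to 77.3%, which overlaps that of 0 to 25.1% for the count of 0 in G418 B. With 7 reads it stayed under the minimum of 10 and out of the main test. At a minimum of 5 reads it passed (log2 difference 4.67, SE 2.01, edgeR adjusted p = 0.0341) where 66.3% of transcripts did, and that value rests on G418 A alone, without which no read remains. Over the whole 3′UTR, NCSTN had 1 and 0 reads in Untreated and 13 and 4 in G418, and it passed there too (log2 difference 3.46, SE 1.10, edgeR adjusted p = 0.00363), as did 70.3% of transcripts.

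APH1B, the least occupied gene, had 1 and 0 reads in Untreated and 2 and 1 in G418. Its 25 to 69 CDS reads per library could not show a difference, as the exact interval of the count of 0 in Untreated B reaches an RRTS of 121%.

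Past the first 3′TC the genes could be compared only where sequence remained. APH1A had 3 and 0 reads over its last 684 nt in Untreated and 11 and 5 in G418, or 1.61 and 0.731 reads per 100 nt in G418 against 13.9 and 11.1 reads per 100 nt before the 3′TC. NCSTN had 1 and 0 reads over 633 nt in Untreated and 6 and 4 in G418, where G418 B had reads after its 3′TC and none before. PSEN2 had 2 and 0 reads over 429 nt in Untreated and 1 and 0 in G418, so no more in G418. The 3249 nt after the 3′TC of APH1B held 2 and 0 reads in Untreated and 0 and 1 in G418. In both G418 libraries the read density of APH1A was thus lower after the first 3′TC than before it, on the 5 and 4 reads before it. PSENEN left 7 nt, too few to hold a count.

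The 5′UTR of APH1A carried many ribosomes, and fewer in G418. Its 206 nt, in a single exon with the start codon, held 124 and 69 reads in Untreated and 76 and 92 in G418. Scaled to depth these were 13.9 and 17.7 RPM in Untreated and 9.06 and 11.996 RPM in G418, while CDS reads were 46.5 and 48.1 RPM in Untreated and 76.5 and 66.2 RPM in G418. Neither pair of ranges overlapped, with the 5′UTR lower and the CDS higher in G418. How many of all transcripts separate in this way in 5′UTR RPM was not counted. In CDS RPKM 32.0% of transcripts tested separated upward as APH1A did.

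Per 100 CDS reads APH1A therefore had 29.9 and 36.9 5′UTR reads in Untreated and 11.9 and 18.1 in G418. The mean ratio fell by 1.16 on the log2 scale, and the means of its parts changed by -0.59 for the 5′UTR and 0.59 for the CDS. The fitted difference was -1.15 (SE 0.26). Over all 4254 transcripts tested, 1.39% fell and 0.0235% rose by edgeR's test at an adjusted p of 0.05, the median difference was -0.17, and both treated values lay below both untreated ones in 31.8%. APH1A ranked 138 from the lowest by fitted difference.

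PSEN2 also carried an occupied 5′UTR, of 383 nt over 4 exons. It held 79 and 26 reads in Untreated and 54 and 51 in G418, or 38.3 and 27.96 per 100 CDS reads against 25.7 and 30.9. The ranges of this ratio overlapped, and the difference of -0.27 on the log2 scale did not pass (SE 0.29, edgeR adjusted p = 0.726, interval -0.83 to 0.29). In RPM the PSEN2 5′UTR reads were 8.85 and 6.69 in Untreated and 6.44 and 6.65 in G418. Both treated RPM values thus lay below both untreated ones here too, though narrowly, and the share of all transcripts that do so was not counted. PSENEN, with a 5′UTR of 140 nt, had 15.4 and 15.7 reads per 100 CDS reads in Untreated and 13.4 and 18.4 in G418, and its treated values lay on either side of the untreated ones. NCSTN and APH1B, whose 5′UTRs are 14 and 19 nt long, had no 5′UTR read in any library.

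The 3 occupied 5′UTRs were high among all transcripts. The share of mRNA reads in the 5′UTR was 22.8 and 27.0% for APH1A and 27.2 and 21.8% for PSEN2 in Untreated, where the median transcript had 2.15 and 2.05%, and this put both genes between the 93.5 and 95.8 percentiles. In G418 the share was 10.4 and 15.1% for APH1A and 20% and 23.2% for PSEN2. This put APH1A at the 82.4 and 88.7 percentiles and PSEN2 at the 92.2 and 94.3 percentiles. PSENEN had 13.3 and 13.6% of its mRNA reads in the 5′UTR in Untreated and 10.4 and 13.8% in G418, at the 82.4 to 87.6 percentiles.

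**Figure D4:**
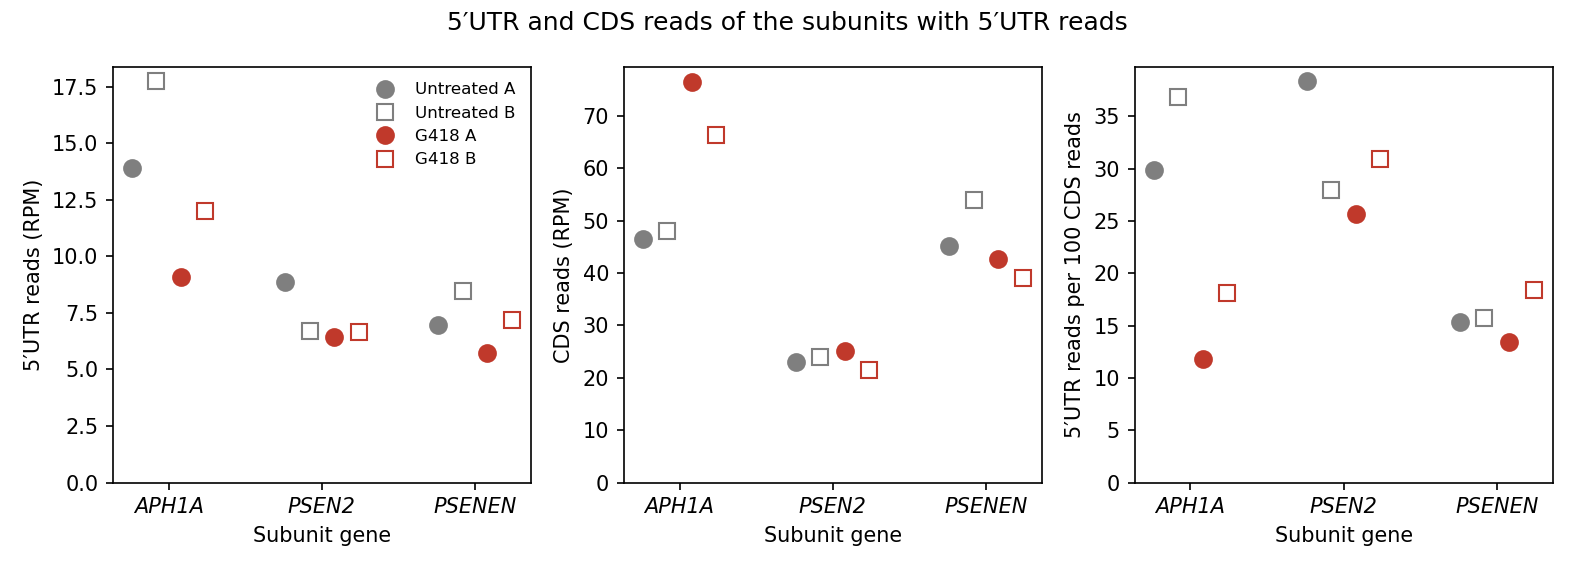
Reads in the 5′UTR in RPM (left), reads in the CDS in RPM (middle) and 5′UTR reads per 100 CDS reads (right) for APH1A, PSEN2 and PSENEN (x axis), a point for each library with grey for Untreated and red for G418, filled circles for replicate A and open squares for replicate B, all axes from 0. For APH1A the red points lie below the grey in the left and right panels and above them in the middle one. For PSEN2 the red points also lie below the grey in the left panel, narrowly. In the right panel the points of both conditions intermingle for PSEN2 and PSENEN.

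Upstream AUGs were looked for because they are the usual start sites of short upstream reading frames. The 5′UTR of APH1A holds no AUG, and neither do those of PSENEN, NCSTN and APH1B, while 42.8% of the 7184 transcripts whose annotation equals the deposited lengths have at least 1. Among transcripts with 5′UTRs of similar length the share is 53.7% for APH1A and 38.7% for PSENEN, but 5.29% for APH1B and 4.08% for NCSTN. PSEN2 holds 2, shown with 12 nt on either side and the AUG in capitals beside the APH1A start codon, the first opening a frame of 8 codons and the second followed at once by a stop codon.
PSEN2 first upstream AUG: ugaauuuuacugAUGaagaaacugagg
PSEN2 second upstream AUG: gucaggagagugAUGugagggagcugu
APH1A start codon: accugaccagccAUGggggcu
Both PSEN2 frames end inside the 5′UTR. For APH1A the letters before the CDS hold no AUG, and which codons its 5′UTR reads began from was not tested.

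The transcripts most like PSENEN in CDS density and RRTS over the 4 libraries were MICOS13, RTCB and AURKB, at distances of 0.40, 0.60 and 0.60 over 8 log2 values against a median distance of 4.77 to the 2824 other transcripts. MICOS13, a mitochondrial inner membrane protein, had no untreated readthrough read and an RRTS of 26.7% and 25.3% in G418. None of the 3 ends in UGAC. The nearest to APH1A in CDS density and 5′UTR reads were CDK2AP1, SBDS and RHEB, at 0.92, 0.95 and 0.96 against a median of 6.30. RHEB, a small GTPase that activates mTORC1, had 36.0 and 36.6 5′UTR reads per 100 CDS reads in Untreated and 21.04 and 21.43 in G418.

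The pathway around the complex was followed with 5 lists: presenilin homologs, sheddases, substrates, assembly and trafficking factors, and Notch nuclear effectors. Of their 52 genes 40 were listed in at least 1 library. CDS reads were tested for 37 of them, of which 3 rose and 1 fell (8.11% and 2.70%, beside 5.31% and 3.21% of all transcripts), with a median difference of 0.09 on the log2 scale beside 0.0025 for all transcripts tested. No presenilin homolog (3 tested), sheddase (4 tested) or assembly factor (3 tested) changed in CDS reads. Of 21 substrates tested, NECTIN1, an adhesion protein, rose from 4.49 and 5.24 to 9.72 and 7.54 RPKM (log2 difference 0.81, SE 0.20, edgeR adjusted p = 0.00882). That call was lost with DESeq2 (adjusted p = 0.209) and without Untreated A, G418 A or G418 B (edgeR adjusted p = 0.13, 0.417 and 0.0951).

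The other 3 called genes were Notch nuclear effectors, of which 6 were tested. HES4, a transcriptional repressor, rose from 21.9 and 31.7 to 53.1 and 51.3 RPKM (log2 difference 0.97, edgeR adjusted p = 0.000215). NRARP, a feedback inhibitor of Notch signalling, rose from 2.15 and 8.24 to 12.2 and 16.3 RPKM (log2 difference 1.73, edgeR adjusted p = 0.00705). HES1, a classical Notch target, fell from 46.7 and 48.3 to 40.6 and 34.3 RPKM (log2 difference -0.40, edgeR adjusted p = 0.0499). The calls among these effectors thus went both ways, but the fall rests on HES1 alone, whose call was lost in 4 of 9 alternatives. The call of HES4 held in 9 of 9 alternatives, though without Untreated A its log2 difference was 0.58, and that of NRARP 0.62 (2.65 without Untreated B). That of NRARP was lost without Untreated A (adjusted p = 0.421) or G418 B (adjusted p = 0.147), and that of HES1 with DESeq2 (adjusted p = 0.234), with library totals (adjusted p = 0.142) and without G418 A or G418 B (adjusted p = 0.465 and 0.722). The remaining 3 effectors tested did not pass.

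Readthrough could be tested for 8 pathway genes, and 7 rose, against 82.6% of all transcripts tested. Of the 8, NOTCH2 and HES4 had no untreated read and met the minimum of 10 reads through G418 alone. Their tests could therefore only come out higher, and both count among the 7. The share of 82.6% holds such transcripts too, as 568 of the 2827 tested had no untreated read. BSG, an immunoglobulin family protein reported as a gamma-secretase partner, had 27 and 22 reads past its NTC in Untreated and 249 and 228 in G418, an RRTS of 1.23 and 1.89% against 11.4 and 11.6% (edgeR adjusted p = 3.21e-52). Among substrates, APLP2 went from 4 and 1 reads to 28 and 26 (edgeR adjusted p = 1.21e-06) and APP from 4 and 1 to 12 and 14 (edgeR adjusted p = 0.00921). NOTCH2 went from 0 and 0 reads to 2 and 8, an RRTS of 48.9% and 241% in G418 (edgeR adjusted p = 0.00508). UBQLN1 rose from an RRTS of 18.2 and 30.7% to 33.7 and 51.4% (edgeR adjusted p = 0.0408), and HES4 had 0 and 0 reads in Untreated and 16 and 8 in G418 (edgeR adjusted p = 0.00132). The calls of BSG, APLP2 and HES4 held in every alternative that could be fitted, while APP lost its call in 3 of 11, NOTCH2 in 4 of 8 and UBQLN1 in 5 of 11. Without Untreated A their edgeR adjusted p was 0.0585, 0.0712 and 0.486, and without G418 B that of APP was 0.0778 and that of UBQLN1 0.322. The median difference of the 8 was 2.44 on the log2 scale beside 3.18 for all tested. It was 1.85 beside 2.44 with transcripts that lack untreated reads set against a floor of 3 reads. None of the 21 pathway genes tested for 5′UTR reads per CDS read passed, and their median difference was -0.23 beside -0.17.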

How the data were processed

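Ribosome profiling libraries of 2 untreated and 2 G418-treated HEK293T cultures were analysed, 1 table per library. The authors collapsed duplicate reads by molecular identifier, trimmed them, discarded noncoding RNA reads, aligned the rest to hg38 with STAR, kept a single alignment for reads with several, and assigned full-length RPFs to regions of 1 transcript per gene. The deposited counts are these RPFs without normalization. The authors' RPM values scale them to mapped reads, their RPKM densities divide RPM by region lengths shortened next to start and stop codons, and the deposited ratio is RRTS. The deposited 5′UTR density was treated as a score and left out.

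Whole reads were recovered from RPM (100% of values whole within 0.01 reads) and used for readthrough and 5′UTR values; deposited counts, which are those reads or 1 less, were used for CDS tests. edgeR 4.0.16 (R 4.3.3) tested, over all transcripts, reads before the 3′TC (at least 10, with 128 mRNA reads per condition) and 5′UTR reads (at least 20, with 128 CDS reads), both with log CDS reads plus 0.5 as offset, and CDS counts with TMM and filterByExpr. SE is the fitted difference over the square root of F, and intervals of fitted differences are normal at 95%. DESeq2 1.42.0, other minimums and scalings, a replicate block and leaving out libraries were alternatives. The direction of fitted changes was checked on simulated counts with an equal spread for all transcripts. That check does not give the error rates of the tests in these data. Counting intervals of RRTS and reads are exact Poisson at 95%, and cover counting error only. Libraries of a condition were not the same library (chi-square per degree of freedom 4.10 and 1.34), and p-values measure the spread between these cultures. Sequences came from GENCODE 44, whose region lengths equalled the deposited ones for 7184 of 9271 transcripts, the 5 subunits included. Figures used matplotlib 3.10.9.

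The subunits, lists and tests were chosen with earlier results of these data known. Genes named are the subunits, up to 3 genes per list and measure past the threshold with the largest differences, and the 3 nearest transcripts to PSENEN and to APH1A. Filament, blood and liver genes served to check the cell line. The sequence around the NTC of 1 subunit is not reported here.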

Additional observations from a re-analysis of the deposited data

How the results depend on the processing

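The order of CDS density held for 8 of 8 neighbour pairs with reads per kb of whole CDS. Readthrough rises numbered 2336 and 2 transcripts fell; the rises became 1536 at a minimum of 20 reads and 1408 with DESeq2, the falls 1 with DESeq2, 4 with library totals and 10 over the whole 3′UTR, and leaving out a library gave 1392 to 2251 rises and 1 to 2 falls. CDS reads rose in 451 and fell in 273 transcripts, against 113 and 137 with DESeq2 and 887 and 120 with library totals in place of TMM (62.3% of calls higher against 88.1%); leaving out a library gave 57 to 990 rises and 15 to 1092 falls, the lowest without a G418 library and the highest without Untreated B. 5′UTR reads per CDS read rose in 1 and fell in 59, against 0 and 30 at a minimum of 50 reads, 0 rises with DESeq2 and with deposited counts, and 0 to 23 rises and 16 to 265 falls without a library. The replicate letters could not be shown to pair the libraries (correlation of A minus B deviations between conditions 0.28, 2 pairs); with the replicate block, CDS falls became 452 and 5′UTR rises and falls 6 and 98, NOTCH2 and UBQLN1 lost their readthrough calls (adjusted p = 0.104 and 0.115), and no other call of a named gene changed. NCSTN CDS reads changed sign to 0.087 with library totals and ranged from -0.075 to 0.036 without a library, PSEN2 CDS reads changed sign to 0.035 with library totals, and PSEN2 5′UTR reads per CDS read ranged from -0.45 to 0.011 without a library (above 0 without Untreated A), none past the threshold. PSENEN readthrough (7.94 to 8.78) and CDS reads (-0.54 to -0.16), and the 5′UTR difference of APH1A (-1.48 to -0.87), kept their directions in every alternative run. The causes were not tested. Readthrough of APH1B and NCSTN rests on 4 and 7 reads before the 3′TC over the 4 libraries. The stretch counted in NCSTN was 39 nt. Its CDS reads, 1391 in Untreated and 1792 in G418, exceeded those of PSENEN, 613 and 657.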
